A study of Arabidopsis thaliana with 24 samples.

Results

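The nuclear genes of Arabidopsis thaliana that encode subunits of photosystem I, subunits of photosystem II and their light-harvesting antenna were followed in rosette leaves of 2 natural accessions. Members were the loci of the LHCA and LHCB families, PSBS, and the PSA and PSB subunit genes, 42 loci in all, taken by locus identifier. Of these, 33 were rows of the table of 20514 loci, made up of 12 antenna genes, 12 photosystem I genes and 9 photosystem II genes. The other 9 members, LHCA2, LHCB1.1 to LHCB1.5 and LHCB2.1 to LHCB2.3, were not analysed here, so the major trimeric antenna of photosystem II is represented by LHCB3 alone.

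Tsu-1 and Kas-1 are inbred wild accessions, and no transgene or mutant is named for either. Each accession was grown singly in pots of ceramic medium with a 10 h day at 23 °C and nights at 18 °C, and was either dried slowly or kept wet. Dry pots were lowered by daily weighing to about 50% of their water by day 5, whereas wet pots stayed near 90%. The groups were Tsu-1 in dry soil, Tsu-1 in wet soil, Kas-1 in dry soil and Kas-1 in wet soil, with 6 arrays each. The design text speaks of 3 biological replicates per combination, and the labels do not say which arrays share a plant or an RNA, so the p-values below reflect variation from array to array, which may be technical in part.

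Photosystem II splits water and passes electrons through the cytochrome complex and plastocyanin to photosystem I, which reduces ferredoxin. The reaction-centre proteins are mostly made in the chloroplast, while the antenna and many peripheral subunits are encoded in the nucleus, made in the cytosol and imported. Antenna proteins bind chlorophyll and carotenoids, feed energy to the reaction centres, and under strong light take part in its safe release as heat.

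Values are log2 expression values as deposited, 1 per locus and array, and 12308 loci with a mean above 6.19 were tested. All 33 members passed that level, so no member was lost to it or admitted by a single group. They were among the brightest loci on the arrays: the member means ran from 10.3 to 13.8, the lowest at percentile 95.1 of all loci, and 27 of the 33 means were at least 12. The highest value of the whole table was 14.2. The tissue label was checked against marker genes: the 4 mesophyll markers in the table (RCA, CA1, GAPA and SBPASE) had means of at least 11.9, while 4 of 5 root markers and 4 of 4 flower markers lay below the lower quartile of loci (5.21). In whole leaves, fewer cells of a type and less RNA per cell cannot be told apart.

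Arrays of 1 group correlated at 0.872 or more across the tested loci. Kas-1 dry 4 and 5 were the most alike (r = 0.995, against 0.985 for the next pair of any group). Array weights, which fall as an array departs from its group over all tested loci, were under 0.5 for 4 arrays: 0.358 for Tsu-1 wet 7, 0.314 for Tsu-1 wet 9, 0.416 for Kas-1 dry 1 and 0.283 for Kas-1 dry 2. Sign counts, medians and the median correlation over all 33 members are given below with and without these 4 arrays.

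The level of the photosystem genes was much alike in the 4 groups. The mean over the 33 members was 12.79 ± 0.07 in dry Tsu-1, 12.68 ± 0.23 in wet Tsu-1, 12.76 ± 0.10 in dry Kas-1 and 12.79 ± 0.08 in wet Kas-1 (log2 level, SD, n = 6 arrays each). The wet Tsu-1 arrays were the most scattered, spanning 0.60 on the log2 scale, against 0.19 in dry Tsu-1, 0.25 in dry Kas-1 and 0.18 in wet Kas-1. In each class wet Tsu-1 had the lowest mean and the largest SD. Antenna genes averaged 12.56 ± 0.09 in dry Tsu-1, 12.45 ± 0.23 in wet Tsu-1, 12.54 ± 0.09 in dry Kas-1 and 12.55 ± 0.07 in wet Kas-1. Photosystem I genes averaged 12.97 ± 0.08 in dry Tsu-1, 12.87 ± 0.24 in wet Tsu-1, 12.92 ± 0.12 in dry Kas-1 and 12.96 ± 0.08 in wet Kas-1. Photosystem II genes averaged 12.85 ± 0.05 in dry Tsu-1, 12.72 ± 0.21 in wet Tsu-1, 12.85 ± 0.09 in dry Kas-1 and 12.87 ± 0.09 in wet Kas-1. In each class the group means lay within 1 SD of the wet Tsu-1 arrays of each other.

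The first comparison asked how the accessions differ, with the soils averaged. Of the 33 members, 2 were called at an adjusted p under 0.05 and both were lower in Tsu-1: PSBO2 and PSBS. Of all 12308 tested loci, 47.7% were called, 23.3% higher and 24.5% lower in Tsu-1. Among the 1002 loci at least as bright as the dimmest member 48.8% were called. The members' share was 6.06%. Their median absolute log2 difference was 0.064, against 0.196 over all tested loci, and their median difference was -0.05, against 0.0039 over all tested loci. Over those 1002 bright loci these medians were 0.238 and -0.02, and 47.2% of the differences were positive. Of the members, 11 had a positive difference, and without the 4 arrays of low weight 14 did, with a median of -0.01.

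PSBO2 (AT3G50820) encodes 1 of the 2 forms of the manganese-stabilising protein, which caps the water-splitting cluster of photosystem II on the lumen side. In dry soil its lowest, median and highest values were 11.43, 11.73 and 11.97 in Tsu-1 and 11.88, 12.16 and 12.18 in Kas-1. In wet soil they were 10.93, 11.63 and 11.93 in Tsu-1 and 11.79, 12.04 and 12.25 in Kas-1. All 12 Tsu-1 arrays lay below the Kas-1 median, and 7 lay below every Kas-1 array, so the accessions overlapped at their edges. The difference averaged -0.46 (SE 0.10, 95% interval -0.67 to -0.26, adjusted p = 0.000651), which is 1.38-fold lower in Tsu-1. It was called in each of the 24 fits that leave out 1 array, with differences from -0.50 to -0.40, and in each of the 10 other settings tried.

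PSBS (AT1G44575) is the antenna-related protein that senses lumen acidity and switches on heat dissipation. It had 12.17, 12.31 and 12.35 as lowest, median and highest value in dry Tsu-1, against 12.30, 12.54 and 12.72 in dry Kas-1. In wet soil the values were 11.62, 12.23 and 12.57 in Tsu-1, against 12.29, 12.46 and 12.57 in Kas-1. In wet soil 3 of the 6 Tsu-1 arrays lay below every Kas-1 array, and the other 3 lay above the Kas-1 median. Over both soils the difference was -0.25 (SE 0.09, adjusted p = 0.0227), 1.19-fold lower in Tsu-1, with 10 of 12 Tsu-1 arrays below the Kas-1 median. It was called in all 24 fits without 1 array (highest adjusted p 0.0432) and in the 10 other settings. Within a single soil it was not called with all arrays, at -0.24 in dry soil (adjusted p = 0.152) and -0.26 in wet soil (adjusted p = 0.115). In dry soil it was called with array weights (-0.25, adjusted p = 0.0280), without the 4 arrays of low weight (-0.30, adjusted p = 0.0149) and with only the compared groups in the fit (adjusted p = 0.0347). In wet soil PSBS was called with consecutive numbers averaged to 3 samples per group (adjusted p = 0.0452), without Tsu-1 wet 8 (adjusted p = 0.0358) and without Tsu-1 wet 10 (adjusted p = 0.0435).

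**Figure D1:**
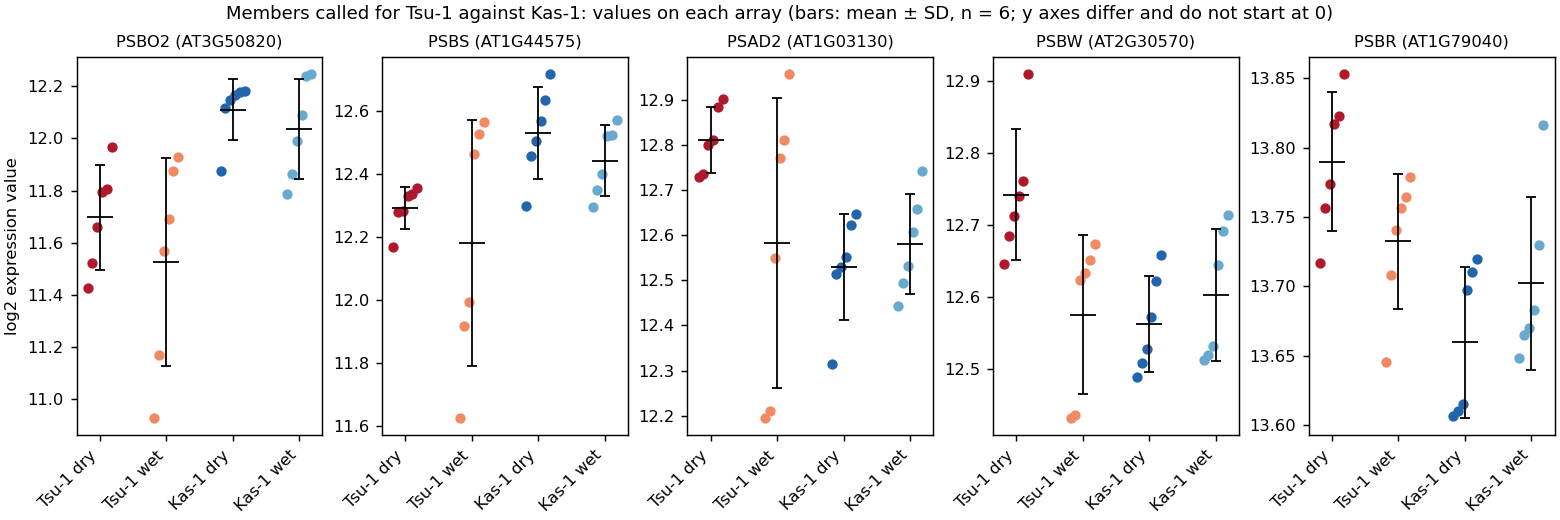
Log2 expression value (y axis, a separate range in each panel, not starting at 0) of the 5 members called in an accession comparison, by group (x axis); points are the 6 arrays of a group and bars the mean ± SD. PSBO2 sits lowest in Tsu-1 in both soils, PSAD2 in dry Tsu-1 lies above every dry Kas-1 array, and the wet Tsu-1 arrays spread widely except for PSBR and, less so, PSBW.

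The remaining antenna genes were not called between the accessions. LHCA1, LHCA3 and LHCA4, which form the belt on one side of photosystem I, differed by 0.03, 0.06 and -0.05. LHCB3, a protein of trimers bound beside the photosystem II core, differed by 0.01. The minor monomeric antenna genes, which link trimers to the photosystem II core, differed by -0.10 (LHCB4.1), -0.10 (LHCB4.2), -0.12 (LHCB4.3), -0.04 (LHCB5) and -0.09 (LHCB6). LHCA5 and LHCA6, scarce proteins that join photosystem I to the chloroplast NDH complex, differed by -0.06 and 0.25. Of the antenna genes 1 of 12 was called and 4 had a positive difference, with a median of -0.05. Of all tested loci 47.7% were called and 50.6% were positive.

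The call of LHCA6 changed with the setting. In dry soil the lowest, median and highest values were 10.48, 10.59 and 10.86 in Tsu-1 and 10.00, 10.48 and 10.60 in Kas-1. In wet soil they were 9.72, 10.62 and 11.05 in Tsu-1 and 10.05, 10.29 and 10.44 in Kas-1, and the Tsu-1 arrays lay on both sides of Kas-1. With all arrays the averaged difference of 0.25 (SE 0.13) had an adjusted p of 0.103. Without Tsu-1 wet 9 it was 0.33 (adjusted p = 0.0158), and without the 4 arrays of low weight it was 0.39 (adjusted p = 0.00262). With every array kept and consecutive numbers averaged to 3 samples per group it was also called (0.25, adjusted p = 0.0258).

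None of the 12 photosystem I genes was called with the soils averaged in the main fit, beside 47.7% of all tested loci. Their differences ran from -0.11 (PSAN, a lumen subunit at the plastocyanin site) to 0.14 (PSAD2), with a median of -0.03 and 4 positive values. PSAD2 was called with array weights (0.18, adjusted p = 0.00963) and without the 4 arrays of low weight (0.21, adjusted p = 0.00341). Leaving out Tsu-1 wet 7 or Tsu-1 wet 9 alone also gave this call (adjusted p = 0.0420 and 0.0369). At the stromal ferredoxin site PSAD1 differed by 0.06, PSAE1 by -0.03 and PSAE2 by 0.02. PSAF, on the plastocyanin side, differed by -0.05, and PSAG and PSAK, which border the antenna belt, differed by -0.11 and -0.02. On the side where mobile antenna docks, PSAH1, PSAH2, PSAL and PSAO differed by -0.07, -0.06, -0.03 and 0.03.

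Of the 9 photosystem II genes 1 was called, PSBO2, beside 47.7% of all tested loci. Their median was -0.06, with 3 positive values. Among the extrinsic proteins of the lumen side, PSBO1 differed by -0.09, PSBP1 by -0.06, PSBQA by -0.12 and PSBQ-2 by 0.02. The small membrane subunits PSBX and PSBY differed by -0.02 and -0.08, PSBR by 0.08 and PSBW by 0.08. Over the 33 members the 95% intervals of the averaged difference lay between -0.67 and 0.52, and 30 of them held 0.

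**Figure D2:**
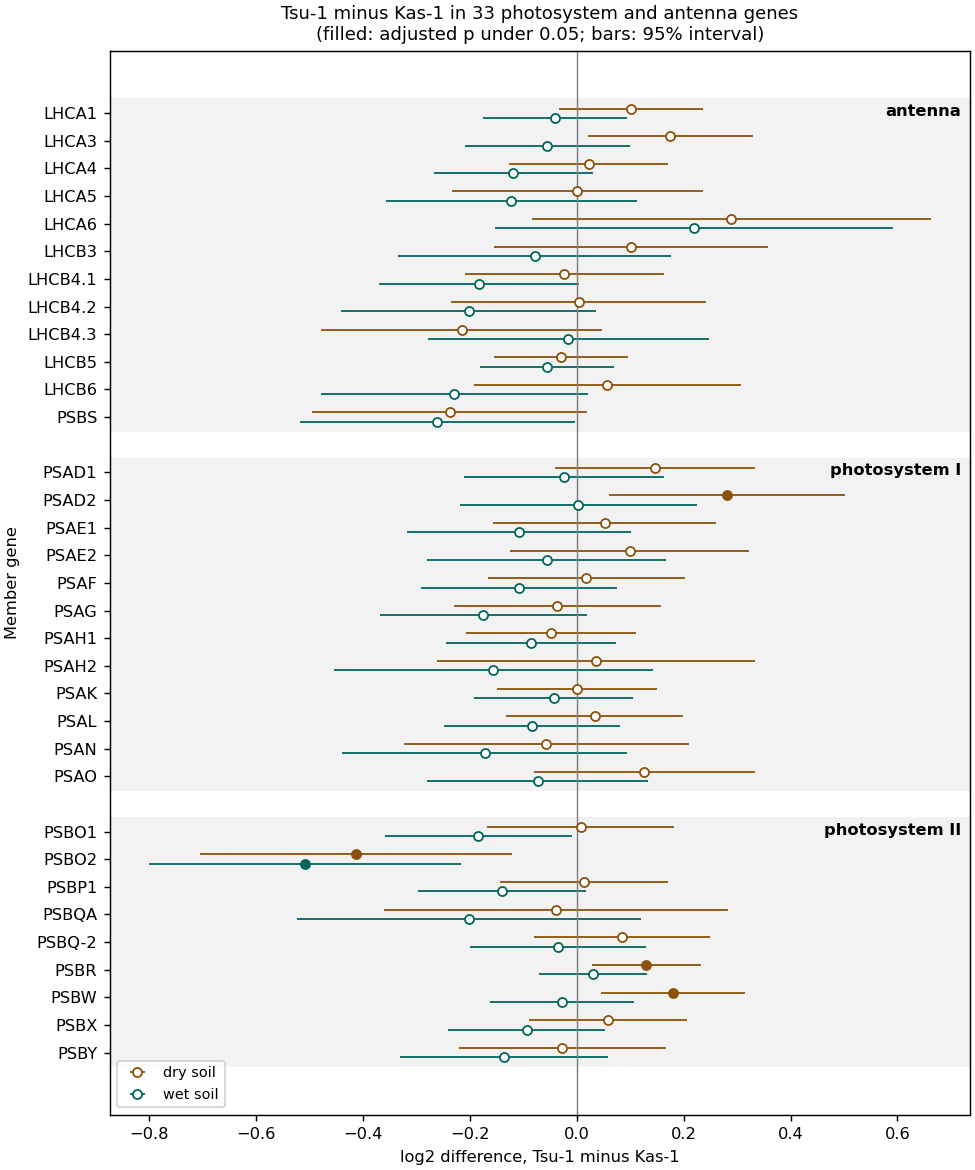
Log2 difference, Tsu-1 minus Kas-1 (x axis), of each of the 33 members (y axis, by class) in dry soil and in wet soil; bars are 95% intervals and filled points have an adjusted p under 0.05. PSBO2 is the one member filled in both soils, and in dry soil PSAD2, PSBR and PSBW are filled on the side of Tsu-1.

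In dry soil alone, 4 members were called: PSAD2, PSBW and PSBR were higher in Tsu-1 and PSBO2 was lower. Of all tested loci 30.5% were called in this comparison, 16.8% higher and 13.8% lower. The members' differences had a median of 0.02, against 0.02 over all tested loci, and 23 of 33 were positive, against 52.3% of all tested loci. Of the 1002 loci at least as bright as the dimmest member 49.7% were positive, with a median of -0.0021. With the 4 arrays of low weight left out, 11 members were positive and their median was -0.02. PSAD2, PSBR and PSBO2 were still called without those arrays, PSBW was not, and PSBS was. No antenna gene, 1 of 12 photosystem I genes and 3 of 9 photosystem II genes were called.

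PSAD2 (AT1G03130) encodes a stromal subunit of photosystem I at the ferredoxin docking site. Its values were 12.73, 12.81 and 12.90 (lowest, median, highest) in dry Tsu-1, against 12.31, 12.54 and 12.65 in dry Kas-1. In dry soil its Tsu-1 arrays all lay above its Kas-1 arrays. How many of all tested loci separate in this way was not counted. The difference was 0.28 (SE 0.11, adjusted p = 0.0498), 1.22-fold higher in Tsu-1. In wet soil the values were 12.20, 12.66 and 12.96 in Tsu-1 and 12.44, 12.57 and 12.74 in Kas-1, a difference of 0.00 (adjusted p = 0.987). Tsu-1 wet 7 and 9, both of low weight, read 12.21 and 12.20, and the other wet Tsu-1 arrays 12.55 to 12.96. Without the 4 arrays of low weight the difference was 0.23 in dry soil and 0.21 with the soils averaged. The adjusted p in dry soil stayed under 0.05 in only 5 of the 24 fits without 1 array (range 0.0284 to 0.102). Of 11 other settings 6 kept the dry call, with adjusted p-values from 0.0110 to 0.0761 over the 11.

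PSBW (AT2G30570), a small subunit that stabilises the supercomplex of photosystem II with its antenna, had 12.65, 12.73 and 12.91 in dry Tsu-1, against 12.49, 12.55 and 12.66 in dry Kas-1. Of the 6 Tsu-1 arrays 5 lay above every Kas-1 array. The difference was 0.18 (SE 0.07, adjusted p = 0.0394), 1.13-fold, and 17 of the 24 fits without 1 array kept the call (highest adjusted p 0.108). Of 11 other settings 4 kept it, with a highest adjusted p of 0.0918. PSBR (AT1G79040), which the stable binding of PSBP to photosystem II needs, had 13.72, 13.80 and 13.85 in dry Tsu-1, against 13.61, 13.66 and 13.72 in dry Kas-1. The difference was 0.13 (SE 0.05, adjusted p = 0.0485), 1.09-fold, and 7 of the 24 fits without 1 array kept the call. With quantile normalisation it was 0.08 (adjusted p = 0.199).

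PSBO2 in dry soil differed by -0.41 (SE 0.14, adjusted p = 0.0298), 1.33-fold lower in Tsu-1. The call was lost in 7 of the 24 fits without 1 array (highest adjusted p 0.0755). With Kas-1 dry 4 and 5 averaged to 1 sample its adjusted p was 0.0552, and no member was called by limma in dry soil.

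In wet soil alone, 1 member was called, PSBO2. Its difference was -0.51 (SE 0.14, adjusted p = 0.00956), which is 1.42-fold lower in Tsu-1. Of all tested loci 30.1% were called here, 13.2% higher and 16.9% lower. All 24 fits without 1 array kept the call. Without the 4 arrays of low weight, 2 of which are wet Tsu-1 arrays, the difference was -0.27 (adjusted p = 0.0802). Of the 33 members 3 had a positive difference in wet soil, against 48.4% of all tested loci, and the median was -0.09, against -0.01 over all tested loci. Of the 1002 loci at least as bright as the dimmest member 43.0% were positive, with a median of -0.06. Leaving out the 4 arrays of low weight gave 19 positive members and a member median of 0.01. Without 1 array the median ran from -0.15 (without Tsu-1 wet 8) to -0.04 (without Tsu-1 wet 9).

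The pairs of near relatives offered a comparison within each array, which adding a constant to a whole array's log2 values cannot move. For 6 pairs with both genes in the table, the log2 difference of the pair was compared between 6 Tsu-1 and 6 Kas-1 arrays in each soil by a two-sided exact permutation test, which cannot give a p below 0.00216. None of the 12 tests passed after adjustment over the 12. The closest was PSBO2 over PSBO1, the other form of the manganese-stabilising protein. In dry soil the lowest, median and highest differences were -1.72, -1.44 and -1.26 in Tsu-1 and -1.28, -1.01 and -0.78 in Kas-1. Their means differed by -0.42 (exact p = 0.00649, adjusted p = 0.0779).

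In wet soil the PSBO2 to PSBO1 differences were -1.84, -1.55 and -1.27 in Tsu-1 and -1.52, -1.22 and -1.05 in Kas-1, and their means differed by -0.32 (exact p = 0.0130, adjusted p = 0.0779). The groups overlapped in both soils. The size of such a difference within an array compares 2 probe sets and says nothing of transcript amounts. PSBO1 itself differed between Tsu-1 and Kas-1 by 0.01 in dry soil and by -0.18 in wet soil, neither of them called. Close copies can share hybridised RNA, so the separate values of PSBO1 and PSBO2, and of the other pairs, are uncertain to that extent. The other 5 pairs had adjusted p-values of 0.416 or more. Tsu-1 minus Kas-1, the pair differences were 0.13 in dry and 0.03 in wet soil for PSAD2 over PSAD1, 0.05 in dry and 0.05 in wet soil for PSAE2 over PSAE1, 0.08 in dry and -0.07 in wet soil for PSAH2 over PSAH1. They were 0.12 in dry and 0.17 in wet soil for PSBQ-2 over PSBQA and 0.03 in dry and -0.02 in wet soil for LHCB4.2 over LHCB4.1.

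**Figure D3:**
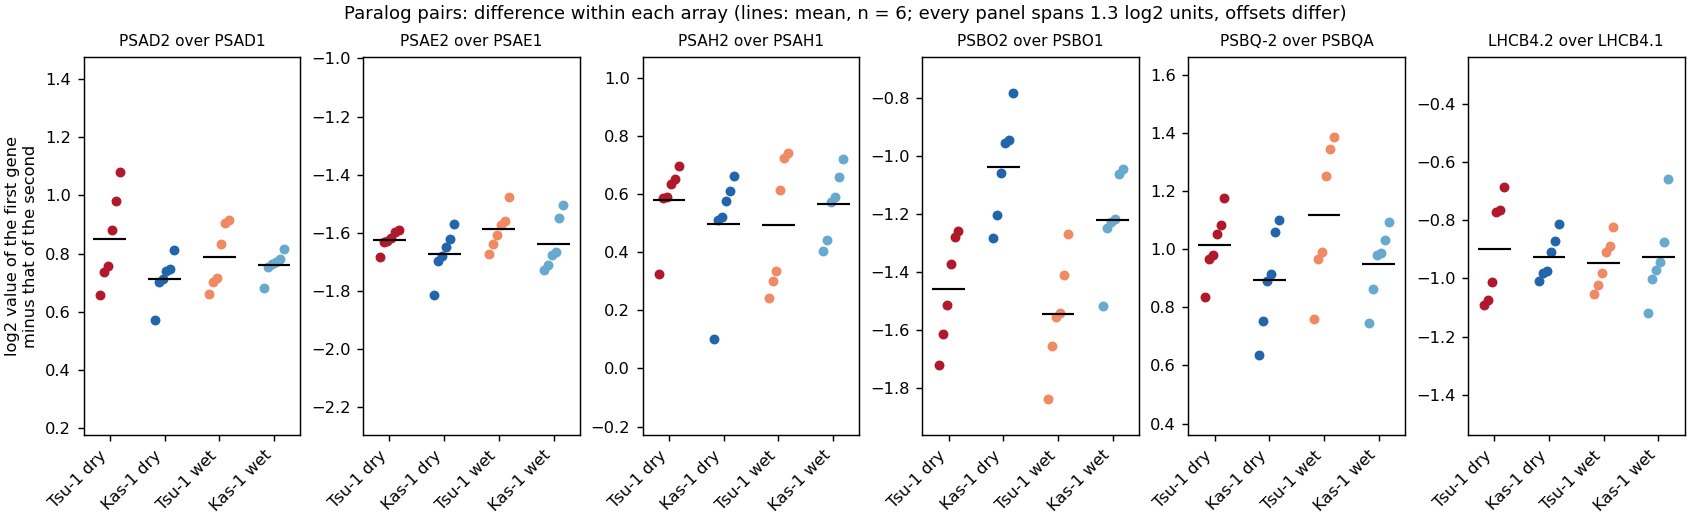
Log2 value of one gene minus that of its near relative on each array (y axis, every panel 1.3 log2 units tall, at its own offset) for 6 pairs, by group (x axis); points are arrays and lines the means of 6 arrays. PSBO2 over PSBO1 has its lower means in Tsu-1 in both soils, with overlapping arrays and no test passed after adjustment.

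An array signal depends on how well a transcript matches the probes, and accessions differ in sequence. A difference in transcript amount and a difference in probe match cannot be told apart in any of these accession comparisons, and probe sequences were not used here.

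The second question was whether photosystem genes respond to mild drying. With the accessions averaged, 0 of 33 members were called by limma, and 1 had an unadjusted p under 0.05. Of all tested loci 0.13% were called, 0.0812% higher and 0.0487% lower in dry soil. The member differences were small: the median was 0.04, against -0.02 over all tested loci, and 28 of 33 were positive, against 42.6% of all tested loci. Of the 1002 loci at least as bright as the dimmest member 48.6% were positive, with a median of -0.0067. When the 4 arrays of low weight were left out, 16 members were positive and their median was -0.0018. Without 1 array the median ran from 0.0063 (without Tsu-1 wet 9) to 0.06 (without Tsu-1 wet 8). The 95% intervals of the 33 members lay between -0.25 and 0.37, that is between 1.19-fold lower and 1.29-fold higher in dry soil.

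The 3 members with the smallest p were LHCA5, PSBW and PSAN. LHCA5 had 10.20, 10.41 and 10.57 (lowest, median, highest) in dry Tsu-1, against 9.96, 10.10 and 10.44 in wet Tsu-1, and 10.00, 10.39 and 10.73 in dry Kas-1, against 10.03, 10.25 and 10.55 in wet Kas-1. Dry and wet arrays overlapped in both accessions. Its averaged difference was 0.18 (SE 0.08, adjusted p = 0.468). PSBW differed by 0.06 (adjusted p = 0.714) and PSAN by 0.12 (adjusted p = 0.741).

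In Tsu-1, 0 of 33 members were called by limma and 3 had an unadjusted p under 0.05. Of all tested loci 0.00812% were called in this comparison, which is 1 locus. Of the members 32 of 33 were higher in dry than in wet soil by their means, against 50.2% of all tested loci, and the median difference was 0.11, against 0.00053 over all tested loci. Of the 1002 loci at least as bright as the dimmest member 59.2% were higher, with a median of 0.03. The smallest p among the members belonged to PSBW (0.17, SE 0.07, adjusted p = 0.878), LHCA5 (0.24) and PSAD2 (0.23). For PSBW 5 of 6 dry arrays lay above every wet array, whereas for PSAD2 no dry array did.

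The Tsu-1 sign count rests on few arrays. Without the 4 arrays of low weight, which include Tsu-1 wet 7 and 9, 10 of 33 members were higher in dry soil and the median was -0.03. Without 1 array at a time the median ran from 0.04 (without Tsu-1 wet 9) to 0.15 (without Tsu-1 wet 8).

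In Kas-1, 0 of 33 members were called by limma and 0 had an unadjusted p under 0.05. Of all tested loci 0.0731% were called in this comparison. Of the members 10 were higher in dry soil, against 39.1% of all tested loci, and the median difference was -0.04, against -0.04 over all tested loci. Of the 1002 loci at least as bright as the dimmest member 37.4% were higher, with a median of -0.06. Without the 4 arrays of low weight, 2 of them dry Kas-1 arrays, 23 members were higher in dry soil and their median was 0.02. Without 1 array the Kas-1 median ran from -0.05 (without Kas-1 wet 8) to -0.0067 (without Kas-1 dry 2). LHCB6 had 12.30, 12.48 and 12.65 in dry Kas-1, against 12.59, 12.70 and 12.80 in wet Kas-1, and 5 of the 6 dry arrays lay below every wet array. Its difference was -0.22 (SE 0.12, adjusted p = 0.528). LHCB4.3 (0.18) and PSAO (-0.14), which belongs to the docking side for mobile antenna on photosystem I, had the next smallest p.

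**Figure D4:**
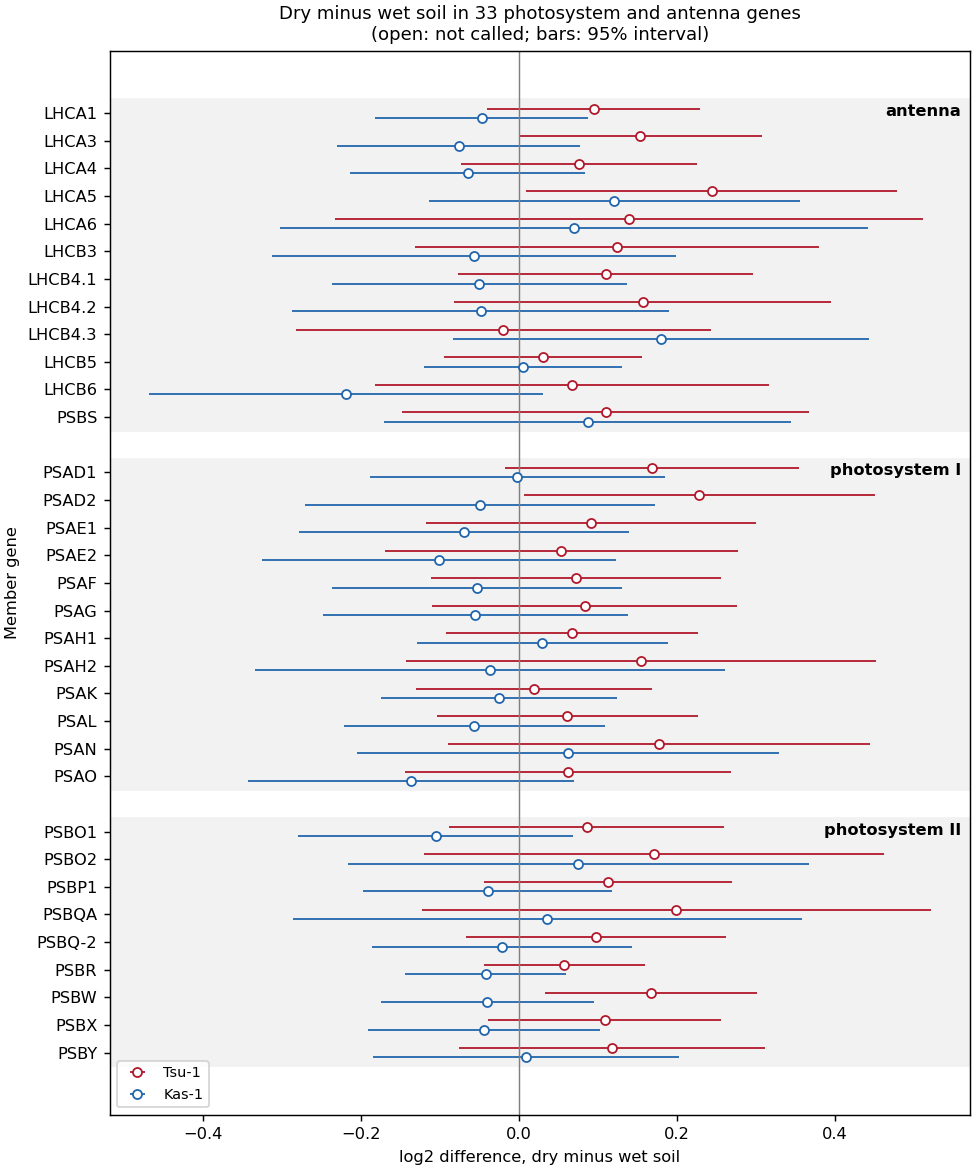
Log2 difference, dry minus wet soil (x axis), of each of the 33 members (y axis, by class) in Tsu-1 and in Kas-1; bars are 95% intervals and open points are not called. Most Tsu-1 points lie right of 0 and most Kas-1 points near or left of it, and no point is filled.

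Whether the drying response differed between the accessions was tested directly. Of the 33 members 0 were called by limma, 2 had an unadjusted p under 0.05, and 0% of all tested loci were called. The differences between responses, Tsu-1 minus Kas-1, had a median of 0.14, against 0.04 over all tested loci, and 32 of 33 were positive, against 59.9% of all tested loci. Of the 1002 loci at least as bright as the dimmest member 69.8% were positive, with a median of 0.08. The smallest p among the members belonged to PSBW (0.21, adjusted p = 0.789), LHCA3 (0.23) and PSAD2 (0.28). By class the medians were 0.14 for antenna, 0.15 for photosystem I and 0.15 for photosystem II. Without the 4 arrays of low weight the median over the members was -0.05, with 10 of 33 positive. Without 1 array the median ran from 0.08 (without Tsu-1 wet 9) to 0.19 (without Tsu-1 wet 8). The 95% intervals of the 33 interaction terms lay between -0.57 and 0.64, and 31 of them held 0.

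Most photosystem genes moved together from array to array within a group. After subtracting group means, the median Pearson correlation over the 528 member pairs was 0.713 across 24 arrays, against 0.0088 over pairs of all tested loci and 0.023 over pairs of loci at least as bright as the dimmest member. Without the 4 arrays of low weight it was 0.440 across 20 arrays, an alternative chosen after seeing the data. These are descriptions: all pairs share the same 24 arrays and their scaling. The median was 0.765 among photosystem I genes, 0.703 among photosystem II genes and 0.547 among antenna genes. Without those 4 arrays these medians were 0.517 for photosystem I, 0.416 for photosystem II and 0.355 for the antenna. PSAO was the most typical member, with a median of 0.847 with the others.

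The arrays farthest from their group means were these. Averaged over the members, Tsu-1 wet 9 lay -0.34 and Tsu-1 wet 7 lay -0.21 from their group mean, with 32 and 31 of 33 members below it. Tsu-1 wet 8 lay 0.26 above and Tsu-1 wet 12 lay 0.15 above, each with 33 of 33 members on that side. In Kas-1 the lowest was Kas-1 dry 2, at -0.19 with 31 of 33 members below the mean. In wet Tsu-1 the summed log2 value of the 4 mesophyll markers was 48.5 in array 9 and 49.4 in array 7, against 52.2 in array 8. It did not follow the members on every array. On Tsu-1 dry 3, where the members averaged 0.12 above their group mean (31 of 33 above), the sum was 50.6. It ranged from 50.2 to 51.2 in dry Tsu-1, 48.5 to 52.2 in wet Tsu-1, 50.6 to 52.2 in dry Kas-1 and 50.5 to 51.6 in wet Kas-1, and its part in the member values was not tested.

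Markers of other tissues are given in the same form. Summed over SUC2, SEOB and APL, the 3 phloem markers ranged from 25.1 to 26.1 in dry Tsu-1 and 24.7 to 26.4 in wet Tsu-1, against 23.7 to 24.7 in dry Kas-1 and 23.5 to 25.1 in wet Kas-1. The 3 senescence markers, of which SAG12 and SAG13 lay below the lower quartile, summed to between 17.3 and 21.8 in dry Tsu-1 and 15.8 and 20.1 in wet Tsu-1, against 15.8 to 16.9 in dry Kas-1 and 15.5 to 16.2 in wet Kas-1. The 4 guard cell markers overlapped in all groups, from 23.9 to 26.9. The part of these in the accession differences of PSBO2 and PSBS was not tested.

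**Figure D5:**
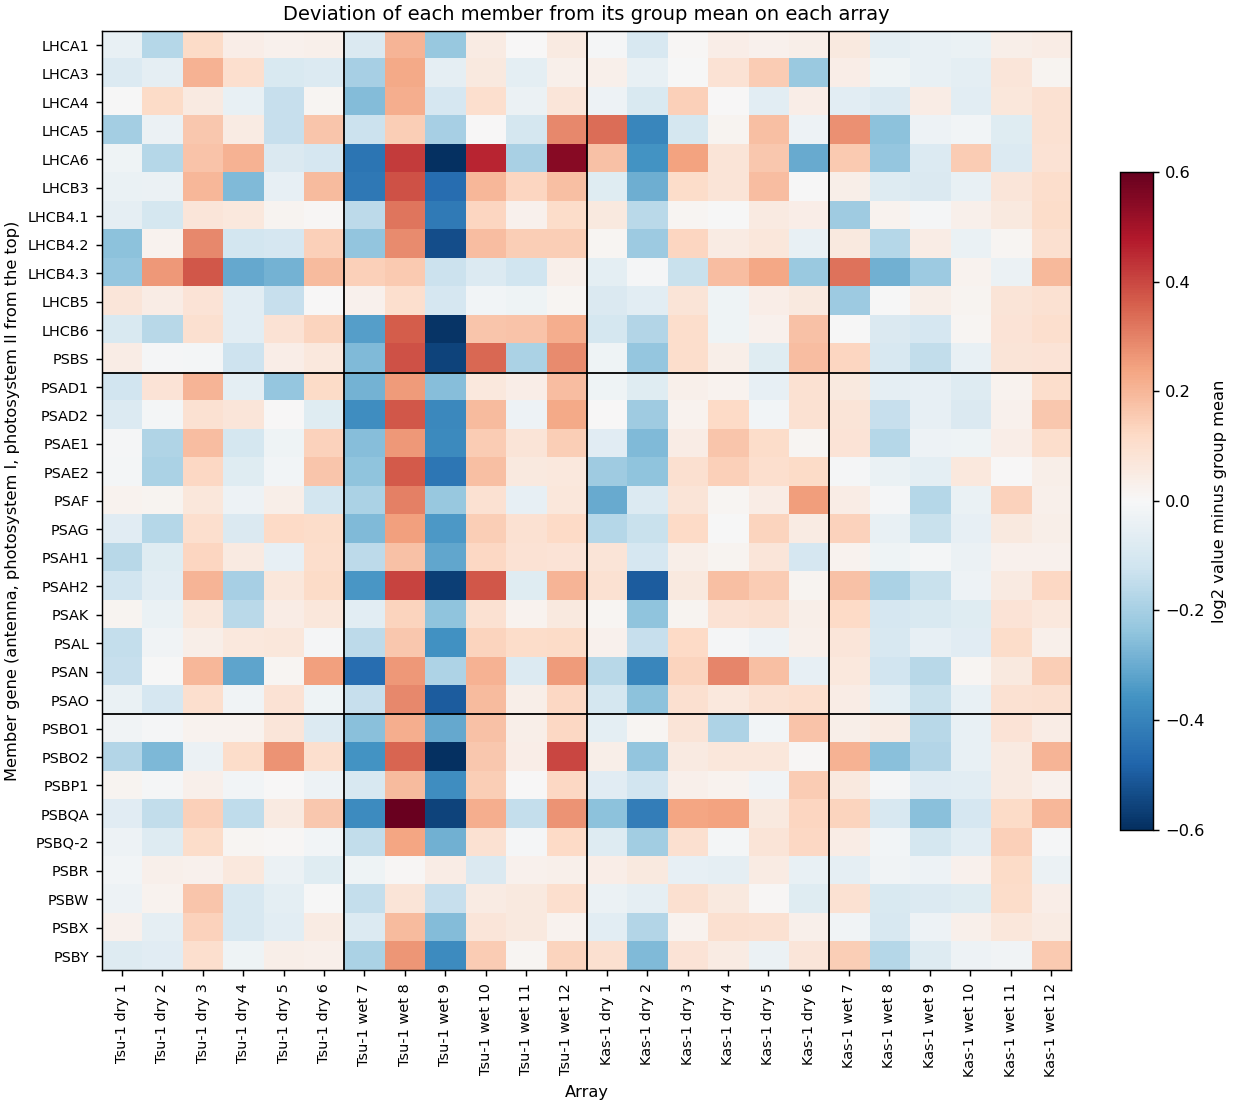
Each member's log2 value minus its group mean (colour, shown up to 0.6 either way) on each of the 24 arrays (x axis, by group) for the 33 members (y axis; antenna, photosystem I and photosystem II from the top). Whole columns share a colour, above all Tsu-1 wet 7 and 9 (low) and Tsu-1 wet 8 (high), and the PSBR row is nearly blank.

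PSBR stood apart from this pattern. Its median correlation with the other members was -0.19 and it was positive with 2 of 32, while LHCB4.3 (0.21) and LHCB5 (0.26) followed the others only weakly. The pooled SD of PSBR within groups was 0.0541 on the log2 scale, rank 1 from the lowest of all 12308 tested loci. On Tsu-1 wet 9, where the members averaged -0.34, PSBR lay 0.05 above its group mean. Members with a higher signal tended to spread less: the median SD within groups was 0.116 for the 6 brightest members, 0.157 for the next 21 and 0.208 for the 6 dimmest, whose means were below 12. Among the 6 brightest members besides PSBR, the SD ranks of 12308 were 109 (LHCB5), 755 (PSAK), 987 (LHCA3), 2797 (PSAF) and 3479 (PSAG). The median SD of all members was 0.157, against 0.203 over all tested loci and 0.245 over loci at least as bright. Whether signals near the top of the scale were compressed was not tested.

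Genes that work beside the photosystems were counted from 7 lists of 61 loci, 57 of them present in the table and 52 bright enough to test. With the soils averaged, 13 of the 52 were called between the accessions, 8 higher and 5 lower in Tsu-1, a share of 25% beside 47.7% of all tested loci. Neither drying with the accessions averaged, drying in either accession, nor the interaction called any of the 52.

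The list of antenna import, state transition and photoprotection genes had 4 of 7 called, all higher in Tsu-1. That is 57.1%, beside 47.7% of all tested loci called and 23.3% called higher. NPQ1, the violaxanthin de-epoxidase of the same heat-release process as PSBS, had lowest, median and highest values of 9.09, 9.23 and 9.58 in dry Tsu-1 and 8.41, 8.62 and 8.89 in dry Kas-1. In wet soil it had 9.01, 9.20 and 9.38 in Tsu-1 and 8.33, 8.73 and 8.89 in Kas-1, so all 12 Tsu-1 arrays lay above every Kas-1 array. The share of all tested loci that separate in this way was not counted. The NPQ1 difference was 0.57 (SE 0.07, adjusted p = 1.26e-06), 1.48-fold. STN7, the kinase that drives state transitions, and TAP38, the phosphatase that reverses them, were higher by 0.41 (adjusted p = 0.00594) and 0.34 (adjusted p = 0.00431).

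Electron carriers and ATP synthase genes had 4 of 13 called (30.8%, beside 47.7% of all tested loci). PGRL1A, a cyclic electron flow protein, and LFNR2, a ferredoxin-NADP reductase, were higher by 0.35 (adjusted p = 0.000558) and 0.28 (adjusted p = 0.00201). PETE1, a plastocyanin, was lower by -0.49 (adjusted p = 0.00362). In chlorophyll synthesis 2 of 13 were called (15.4%), both lower: GUN4, an activator of magnesium chelatase, at -0.55 (adjusted p = 0.0325) and PORA, a protochlorophyllide reductase, at -0.31 (adjusted p = 0.0119). The GUN4 call was kept in 16 of the 24 fits without 1 array (highest adjusted p 0.0630). PORA had a low signal, with group means from 6.78 to 7.12, where loci above 6.19 were tested. PORB and PORC of the same list, with group means of at least 11.1, were not called.

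In the remaining lists, LHCB7, a rare relative of the antenna genes, was the 1 called of 7 auxiliary proteins (0.36, adjusted p = 0.00260). CA1, a chloroplast carbonic anhydrase that is also 1 of the 4 mesophyll markers, was 1 of 2 on its list (-0.56, adjusted p = 0.0172). LIL3:1, an antenna-like protein of chlorophyll synthesis, was 1 of 6 among ELIP relatives (-0.52, adjusted p = 0.00197). None of the 4 tested light and plastid regulators was called. The shares called were 14.3% of auxiliary proteins, 50% of the list with CA1 and 16.7% of ELIP relatives, beside 47.7% of all tested loci.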

How the data were processed

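Biotin-labelled cRNA from 24 rosette leaf samples was hybridised to expression arrays. The authors deposited 1 table of log2 values per locus and array. The unit was read from the values, and the submitters' processing notes name MAS5 alone, with no role, so background correction, probe summary and normalisation are not given in the sources used here. Groups came from the sample titles.

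Loci above the 40th percentile of mean signal were fitted with 1 mean per group in limma 3.58.1 (R 4.3.3, empirical Bayes with trend), with two-sided p-values adjusted by Benjamini and Hochberg in each of 7 comparisons; adjusted p-values are limma's unless an exact permutation test (scipy 1.17.1) is named. The number of arrays limits precision. The fit was tested on simulated data with independent noise at each locus. That test did not cover genes that move together or arrays of low weight.

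Members were taken by gene family and locus identifier, without a rule on their values, but they, the lists, comparisons and alternatives were chosen with earlier results of these data known. Named were the called members with the 6 largest differences in each direction, or the 3 smallest p where none was called, both genes of each pair, and up to 3 called genes per further list. LHCA6, PSBR within arrays and the brightest members were singled out after their values were seen. Locus symbols were checked against the RefSeq table for TAIR10.1, in which all 42 members matched.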

Additional observations from a re-analysis of the deposited data

Results flagged for a closer look

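Among 132 sets of 6 arrays (33 members in 4 groups), 8 held a lowest or highest array separated from the rest by more than Dixon's critical share of the group's range. Chance gives about 1 set in 20 for an array at either end where sets are independent. These sets share arrays and most members moved together, so 8 of 132 cannot be weighed against that rate. All 8 were low values, and 6 of them fell on Kas-1 dry 2, an array of low weight. There LHCA1 read 13.15 (other dry Kas-1 arrays 13.24 to 13.29), LHCB4.1 read 13.31 (13.47 to 13.53), PSAH2 read 12.74 (13.25 to 13.42) and PSAK read 13.53 (13.78 to 13.87). On the same array PSBO2 read 11.88 (12.12 to 12.18) and PSBY read 12.64 (12.87 to 13.01). The other 2 fell on Kas-1 wet 7, where LHCB4.1 read 13.31 (13.51 to 13.63) and LHCB5 read 13.53 (13.75 to 13.84).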

How the results depend on the processing

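With the soils averaged, 2 members were called. Array weights gave 4, as did leaving out the arrays of low weight, the 60th percentile filter and averaging consecutive numbers gave 3 each, and leaving out 1 array gave 2 to 4 (4 without Tsu-1 wet 9). PSBO2 and PSBS were called in each of these. In dry soil 4 were called, against 2 with quantile normalisation, 1 with median centring, 1 with no filter, 2 with consecutive numbers averaged to 3 samples per group, and 0 by limma with Kas-1 dry 4 and 5 averaged. Array weights gave 5 there, adding PSBS, and leaving out the arrays of low weight gave 4, with PSBS in place of PSBW. Leaving out 1 array gave 0 to 4 there. The count was 2 or fewer in 18 of those 24 fits, which left out each dry array in turn, Kas-1 wet 7 to 10 and 12, and Tsu-1 wet 11, and it was 0 by limma without Kas-1 dry 5 or 6 and without Tsu-1 dry 2 or 3. In wet soil 1 was called, against 2 with array weights and 2 with consecutive numbers averaged, and 1 to 4 without 1 array (4 without Tsu-1 wet 8, 2 without Tsu-1 wet 10); without the arrays of low weight the 1 call was LHCA6 and not PSBO2. The share of all tested loci called in each alternative is not given here. These counts therefore cannot tell a change among the members from one across all tested loci. The cause of these changes was not tested. The replicate block, the title number within each soil, gave 1 call in dry soil (PSBO2) and changed no other count of calls; same-numbered samples had correlations from -0.397 to 0.555 and 2 of 12 numbers correlated best with their own, so the block is not a pairing. Drying and the interaction gave 0 calls in every setting. Pairs of near relatives gave 0 in every setting except 2 without Kas-1 wet 8 (range 0 to 2). Both of these calls were PSBO2 over PSBO1, in dry and in wet soil (adjusted p = 0.0390 each, exact permutation test). None of the single-gene and pair differences recomputed under the alternatives changed sign. Those of members that were not called and not among the smallest p were not recomputed, and neither were those of the other pairs. The number of arrays limits what small differences could be seen.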
